A study of Mus musculus with 8 samples.

Results

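The subunits of the respiratory chain that are encoded in the nucleus were followed in mouse liver after an inhibitor of miR-122. They were taken by name from the table of all genes: protein-coding genes whose symbols begin with Nduf, Sdh followed by a, b, c or d, Uqcr, Cox followed by a digit of 4 to 8, or Atp5, without the assembly factors called Ndufaf. This gave 85 of 43629 genes with values, of which 36 were assigned to complex I, 4 to complex II, 8 to complex III, 20 to complex IV and 17 to complex V. The 17 include Atp5sl and Atp5s, which carry the name without being structural subunits and are counted with the subunits below. The comparison was of 4 male C57BL/6 mice given antagomiR-122 and later CL316243 with 4 male C57BL/6 mice given antagomiR-control and later CL316243. All were 7 to 8 weeks old, had 5 µg of antagomiR injected into the tail vein, had a subcutaneous dose of 1 mg/kg CL316243 after 48 h, and were killed 2 h after the second injection. Each library came from the liver of 1 mouse. CL316243 is an agonist of the β3-adrenergic receptor, and since both groups received it, its own effect cannot be read from these libraries. An antagomiR is a modified oligonucleotide complementary to a microRNA. The libraries do not measure mature miR-122, and the extent of its inhibition was not analysed here.

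Complexes I and II pass electrons from NADH and succinate to ubiquinone, complex III passes them on to cytochrome c, and complex IV passes them to oxygen. Complexes I, III and IV pump protons across the inner mitochondrial membrane, and complex V, the ATP synthase, uses the returning protons to make ATP. Complexes I, III, IV and V combine a few subunits encoded in mitochondrial DNA with many encoded in the nucleus, whereas all subunits of complex II are nuclear. Hepatocytes are rich in mitochondria and oxidise the fatty acids that reach the liver from adipose tissue. Transcription of the nuclear subunits is known to depend on factors that include NRF1, GABPA, YY1 and the estrogen-related receptors, with PGC-1α as a coactivator.

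Expression was measured by RNA-seq of whole liver and deposited as FPKM, a count of fragments divided by transcript length and library size. This is meant to make genes of different length comparable, but deviations of single libraries still varied with length, as given below. In bulk tissue, fewer cells of a type and less RNA per cell cannot be told apart. Of the hepatocyte markers Ttr, Apoa1, Cps1 and Cyp2e1, each averaged at least 753 FPKM with antagomiR-122 and 772 FPKM with antagomiR-control, while Alb was listed at 0 in all 8 libraries. Relative depth, estimated from the steps between low FPKM values, was 0.887 to 1.07 in antagomiR-122 replicates 1 to 3 and 2.37 in antagomiR-122 replicate 4, against 0.915 to 1.13 in the controls. Differences were tested with limma on log2(FPKM + 1) in the 11131 genes that averaged 1 FPKM or more, and p-values were adjusted over them by the Benjamini-Hochberg method, with 0.05 as the threshold. Of the 85 genes, 78 passed this filter. Values of single livers are given below in the order of replicates 1 to 4, and log2 fold changes are antagomiR-122 minus antagomiR-control.

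No nuclear-encoded subunit passed the threshold, and most lay slightly higher with antagomiR-122. The median log2 fold change of the 78 was 0.066, and the single values ran from -0.11 for Ndufs1 to 0.22 for Atp5sl. Of the 78, 68 (87.2%) had a log2 fold change above 0 and 10 had one below 0, beside 53.0% above 0 and a median of 0.010 among all genes tested. Genes of similar abundance leaned the same way, since 67.3% of the 1353 non-member genes averaging 50 FPKM or more were above 0, with a median of 0.045. With TPM scaling and after quantile normalization 54 of the 78 (69.2%) were above 0, beside 42.6% and 52.2% of all genes in these settings. The median of each complex stayed above 0 under every scaling tried. Limma called 0 of the 78 at an adjusted p under 0.05, as it did for 0.0% of all genes tested. At an unadjusted p under 0.05 there were 2 of the 78 (2.56%), Atp5sl and Ndufb10, against 7.44% of all genes, and both were higher with antagomiR-122, against 3.76% of all genes in that direction. In the same 2 genes all 4 antagomiR-122 livers lay above all 4 control livers, against 4.52% of all genes whose groups did not overlap in either direction and 2.38% with the antagomiR-122 livers above. The authors' deposited table, made with Cuffdiff, tested 80 of the 85 genes, with a smallest p of 0.102 (Cox6b2) and a smallest q of 0.971.

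The data limit how large a difference could have gone undetected. In all 78 genes the 95% interval of the log2 fold change lay within 0.5 of 0, with a lowest bound of -0.35 for Cox7a1 and a highest of 0.45 for Atp5s, while 77.5% of all genes and 84.6% of those other genes at 50 FPKM or more had such an interval. Cox7a1 and Atp5s average a few FPKM, where this scale compresses a change, so the bound is no limit on their fold change, and the ratio of the means of Atp5s was 1.21. In 62 of the 78 the interval lay within 0.3 of 0. Summed over the 85 genes, FPKM were 14317, 15949, 17190.1 and 14259 in antagomiR-122 livers, against 14639.7 (replicate 1), 14724 (replicate 2), 14545 (replicate 3) and 15144 (replicate 4) in antagomiR-control livers. The means were 15429 ± 1411 FPKM with antagomiR-122 and 14763 ± 264 FPKM with antagomiR-control (SD, n = 4 each), a ratio of 1.045. In these sums antagomiR-122 replicates 2 and 3 lay above every control, and replicates 1 and 4 lay below every control. The picture differed for shares of the FPKM summed over genes not encoded in mitochondrial DNA. The 85 genes made up 2.93, 2.90, 3.14 and 2.90% of it in antagomiR-122 livers, against 2.96, 2.92, 2.93 and 2.83% in antagomiR-control livers. By share, only antagomiR-122 replicate 3 lay above every control, and no antagomiR-122 liver lay below every control.

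**Figure D1:**
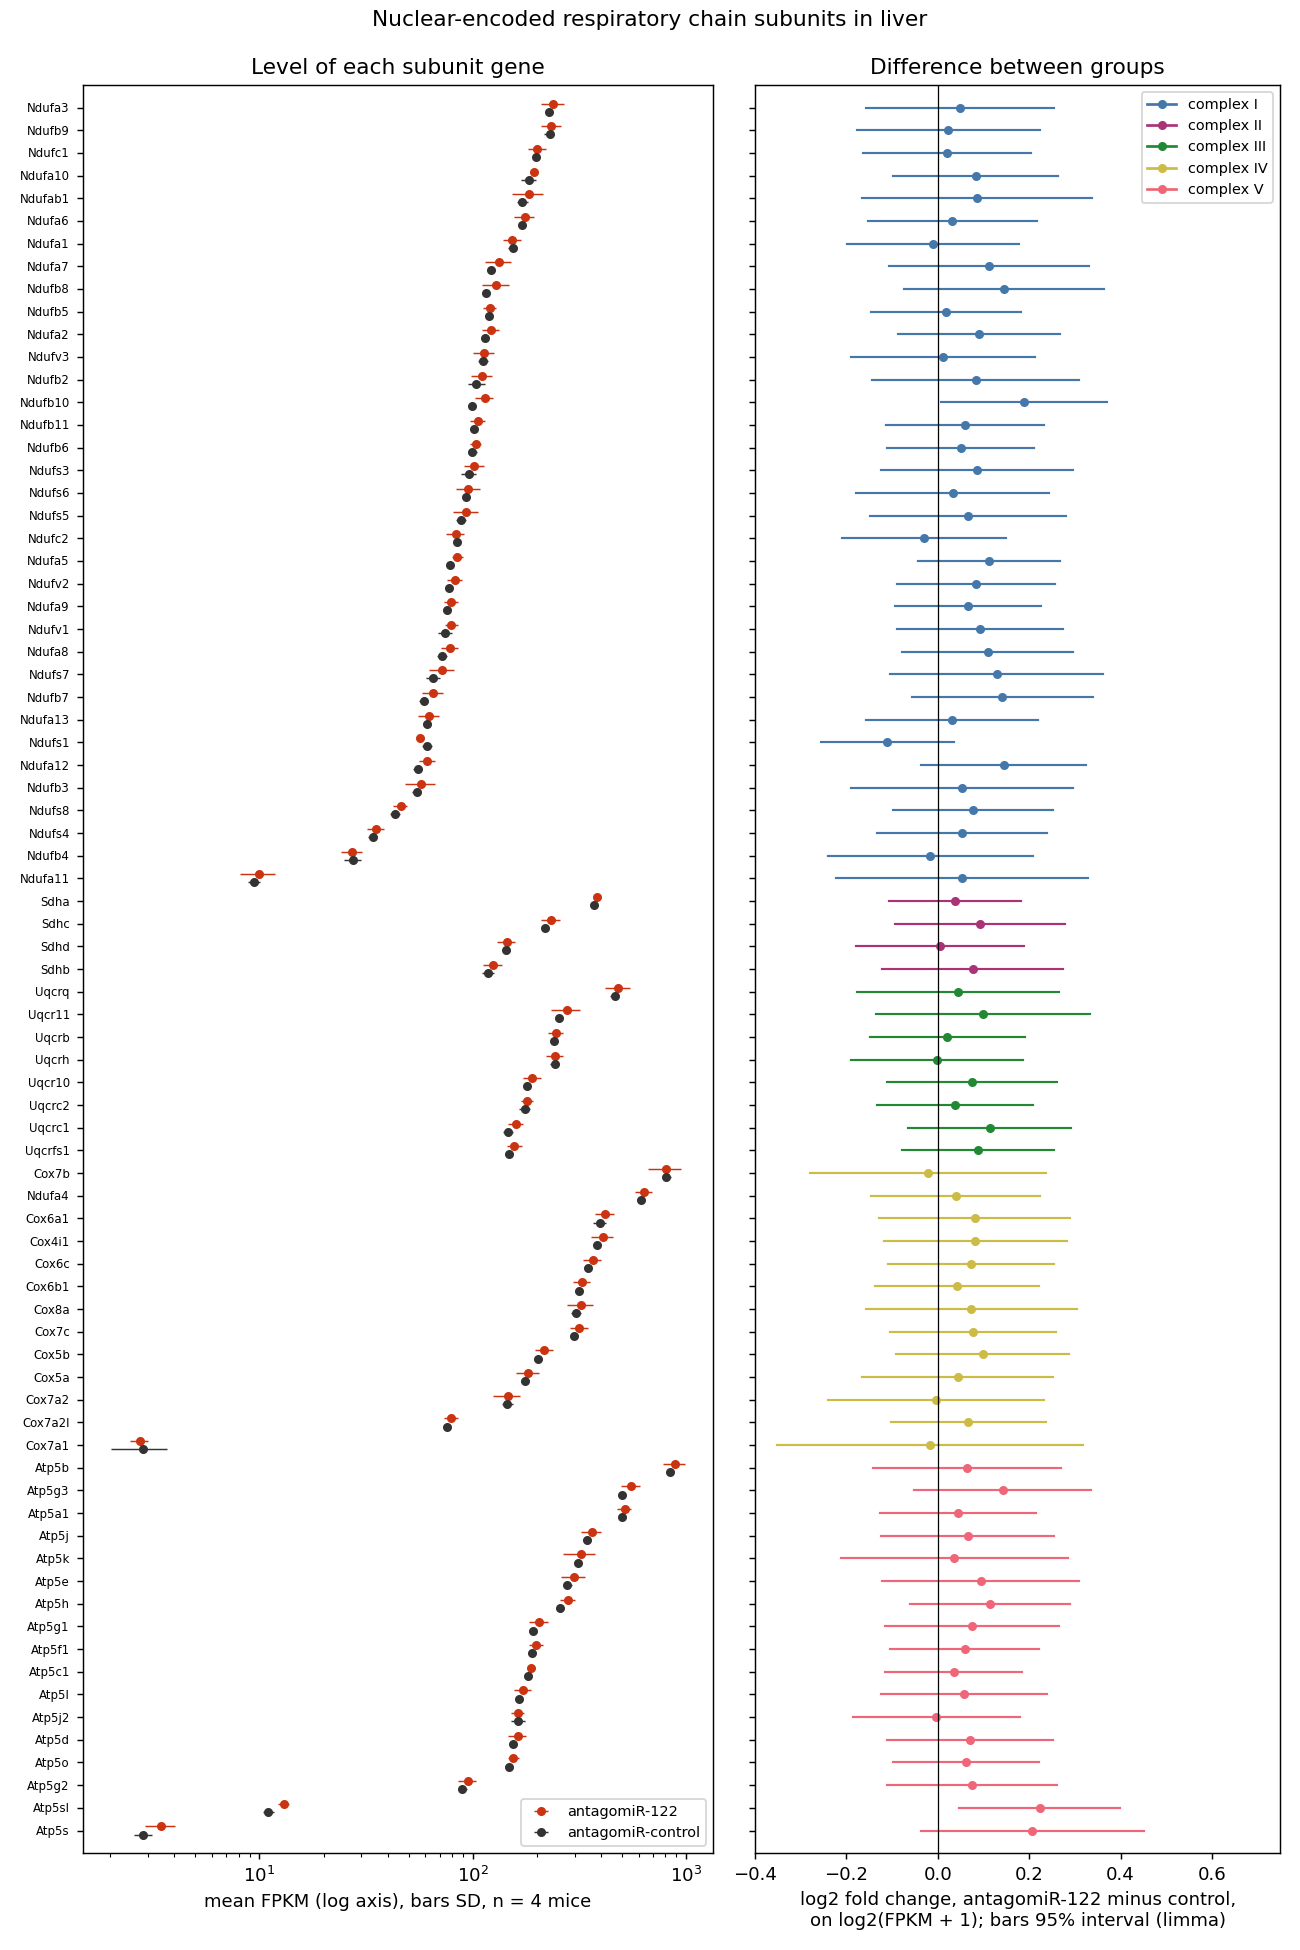
Mean FPKM of 77 tested subunit genes (left, log axis, bars SD, 4 mice per group) and their log2 fold change with its 95% interval (right, log2 scale, antagomiR-122 minus control), ordered by complex and then by level. Group means lie close together at every level, and the interval leaves out 0 only for Ndufb10 and Atp5sl, neither of which passed the adjusted threshold.

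The lean towards higher values was not shared by the 4 antagomiR-122 livers. Relative to the mean of the 4 controls, the median subunit gene stood at -0.042, 0.12, 0.21 and -0.039 on the log2(FPKM + 1) scale in antagomiR-122 replicates 1 to 4, against -0.016, -0.00047, -0.021 and 0.041 in antagomiR-control replicates 1 to 4. AntagomiR-122 replicate 3 was the highest of the 8 libraries in 55 of the 78 genes (70.5%), and it was the highest in 17.1% of all genes tested. AntagomiR-122 replicate 2 was the highest in another 19 (24.4%), beside 19.5% of all genes tested. Replicate 3 exceeded all 4 controls in 72 of the 78 genes and replicate 2 in 58, whereas replicates 1 and 4 did so in 4 and 7 and lay below all 4 controls in 29 each. Of all genes tested, 27.7% exceeded all 4 controls in replicate 3, 29.5% in replicate 2, 17.5% in replicate 1 and 24.2% in replicate 4. Below all 4 controls were 19.2% of all genes in replicate 1 and 20.1% in replicate 4. The median coefficient of variation of a subunit gene was 9.78% among antagomiR-122 livers and 4.30% among controls, and for all genes tested it was 13.5% among antagomiR-122 livers and 11.1% among controls. For the other genes averaging 50 FPKM or more it was 11.3% among antagomiR-122 livers and 7.58% among controls. Without antagomiR-122 replicate 3 the median log2 fold change of the 78 was 0.015 and 49 of them (62.8%) were above 0. All genes tested then had a median of 0.013, with 54.1% above 0. Without antagomiR-122 replicate 4 the median of the 78 was 0.10 with 77 (98.7%) above 0, beside 0.0074 and 51.8% for all genes tested.

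Most of the tested markers of liver cell types were below 0. Above 0 were 1 of 4 tested hepatocyte markers (median log2 fold change -0.037), 1 of 4 of Kupffer cells (-0.032), 1 of 5 of sinusoidal endothelium (-0.11), 1 of 5 of stellate cells (-0.079), 0 of 2 of cholangiocytes (-0.32) and 1 of 2 of erythroid cells (0.047), against 53.0% of all genes. None passed the adjusted threshold (limma). At an unadjusted p under 0.05 were Cyp2e1 of hepatocytes, at a log2 fold change of 0.29 ± 0.10, Lyve1 of endothelium, at -0.37 ± 0.13, Lrat of stellate cells, at -0.37 ± 0.11, and Spp1 of cholangiocytes, at -0.27 ± 0.090 (SE; limma adjusted p = 0.561, 0.577, 0.486 and 0.536), and the groups of Lrat and Spp1 did not overlap, against 7.44% and 4.52% of all genes by these measures. The 5 cholangiocyte markers summed to 26.0 to 30.5 FPKM with antagomiR-122 and 30.4 to 38.7 FPKM with antagomiR-control, those of stellate cells to 80.8 to 106 FPKM with antagomiR-122 and 90.6 to 109 FPKM with antagomiR-control and those of endothelium to 84.9 to 101 FPKM with antagomiR-122 and 88.3 to 92.9 FPKM with antagomiR-control. Hepatocyte markers summed to 10672 to 12748 FPKM with antagomiR-122 and 10756 to 12713 FPKM with antagomiR-control. Their part in the lean of the subunits was not tested.

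**Figure D2:**
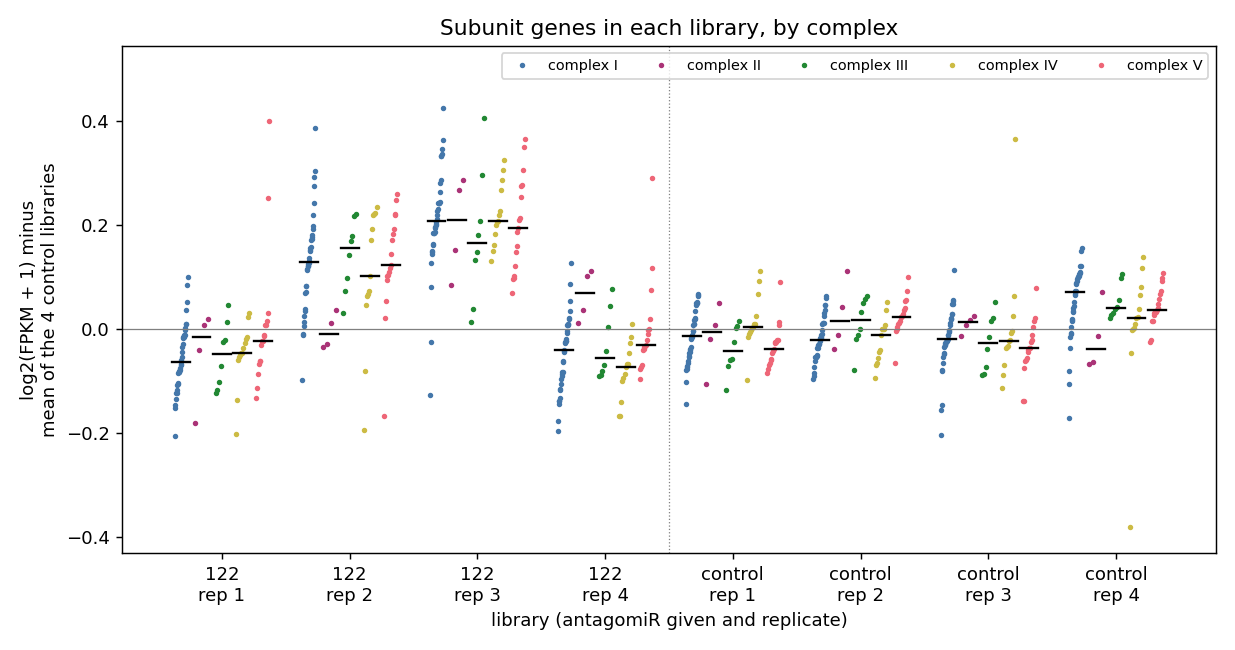
Level of each of the 78 subunit genes in each library, as log2(FPKM + 1) minus the mean of the 4 control libraries, coloured by complex, with black bars at the median of each complex. In antagomiR-122 replicate 3 the median of every complex lies between 0.17 and 0.21, and in antagomiR-122 replicate 1 every median lies below 0.

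Short transcripts of other kinds were high in the same libraries. The subunit transcripts are short, with a median of 751 bases against 2538 bases for all genes tested. Among 541 other genes of up to 700 bases the medians were -0.026, 0.094, 0.17 and -0.037 in antagomiR-122 replicates 1 to 4, close to those of the 33 subunit genes of that length, -0.046, 0.10, 0.21 and -0.070. In the 123 other genes of that length averaging 50 FPKM or more, the medians were -0.033, 0.13, 0.23 and -0.087. Among 5627 other genes over 2500 bases, antagomiR-122 replicate 3 stood at -0.086 instead. Other genes averaging 50 FPKM or more were high in antagomiR-122 replicate 2 in every class of length. Their medians there were 0.13, 0.15, 0.13 and 0.082 from the shortest class to the longest, against 0.23, 0.16, 0.096 and -0.024 in antagomiR-122 replicate 3. Across genes, Spearman's correlation of length with the deviation in antagomiR-122 replicate 3 was -0.34 over the 78 subunit genes and -0.38 over 10974 others, a description in which all points share 1 library. In antagomiR-122 replicate 2 it was 0.18 over the subunit genes and -0.21 over the others, and in antagomiR-122 replicate 4 it was 0.40 and 0.056. With the trend on length removed from each library, a step added after the values were seen, the median of the 78 was 0.022 and 53 (67.9%) were above 0. All genes fitted in that setting had a median of 0.00026, with 50.1% above 0. AntagomiR-122 replicate 4, at a relative depth of 2.37, had a median of -0.039, and the part of depth in the result was not tested.

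**Figure D3:**
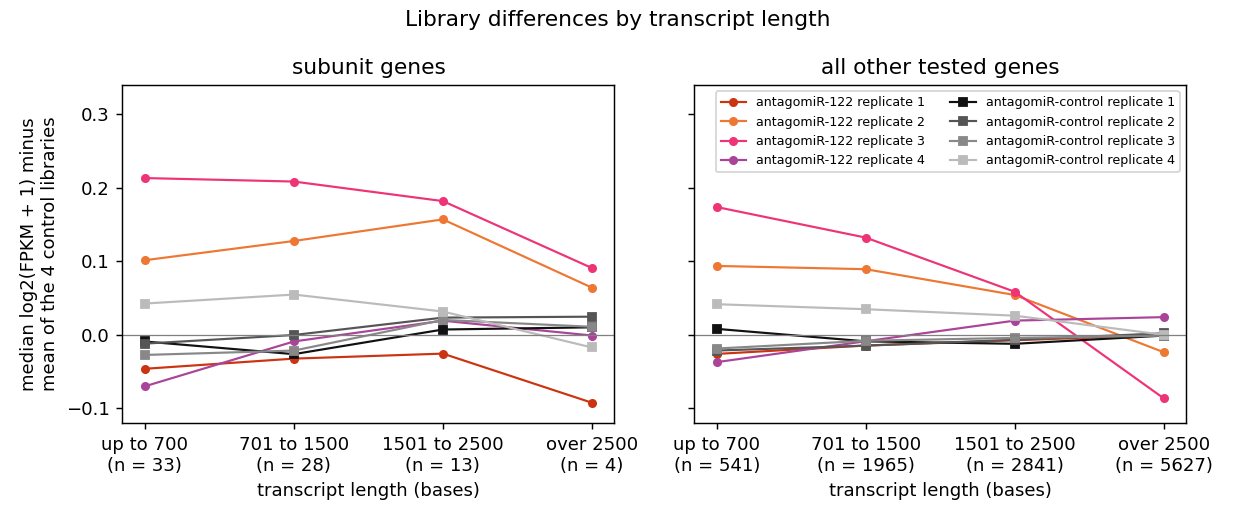
Median log2(FPKM + 1) minus the mean of the 4 control libraries, in 4 classes of transcript length, for the subunit genes (left) and all other tested genes (right), with 1 line per library. AntagomiR-122 replicate 3 is at 0.21 for subunit genes and 0.17 for other genes of up to 700 bases, and at -0.086 for other genes over 2500 bases, while the class of subunit genes over 2500 bases holds only 4 genes.

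Promoters were read because the median of each of the 5 complexes was highest in the same library, antagomiR-122 replicate 3, where other short transcripts were high as well. Whether the motifs relate to levels in that library was not tested. RefSeq windows (GRCm38.p6) from 250 bases before to 50 bases after the start site were matched for 70 of the 85 genes, in 76 windows. Some genes have overlapping windows, so the same site can be counted again, as with NRF1 in Ndufa5 and YY1 in Atp5sl. The NRF1 motif (GCGC, any base, then TGCGC) was present on either strand in 18 of the 76 windows (23.7%), against 4.60% of 32851 windows of all genes and 9.97% of 10509 windows of the other tested genes. The YY1 motif AAGATGGCG was present in 9 (11.8%), against 1.40% of all windows and 3.05% of those of other tested genes. The GABPA motif CCGGAAGT was present in 6.58%, against 3.89% of all windows and 8.18% of those of other tested genes, and the motif TCAAGGTCA of the estrogen-related receptors in 2.63%, against 0.423% of all windows and 0.266% of those of other tested genes. These motifs were searched without mismatches on both strands, no 2 different motifs share bases in the windows shown, and a match describes letters, not binding. A promoter of each complex is given 5′ to 3′ on the strand of its gene, with matches in capitals, because each carries an NRF1 match. They are Ndufs6 at chr13:73328433-73328732 (minus strand, NRF1 then YY1), Sdhd at chr9:50603800-50604099 (minus, NRF1 then the receptor motif, both on the other strand), Uqcrc1 at chr9:108936398-108936697 (plus, NRF1 at 2 places), Cox6a1 at chr5:115348909-115349208 (minus, NRF1 at 2 places) and Atp5g3 at chr2:73911277-73911576 (minus, the receptor motif on the other strand, then NRF1).
Ndufs6: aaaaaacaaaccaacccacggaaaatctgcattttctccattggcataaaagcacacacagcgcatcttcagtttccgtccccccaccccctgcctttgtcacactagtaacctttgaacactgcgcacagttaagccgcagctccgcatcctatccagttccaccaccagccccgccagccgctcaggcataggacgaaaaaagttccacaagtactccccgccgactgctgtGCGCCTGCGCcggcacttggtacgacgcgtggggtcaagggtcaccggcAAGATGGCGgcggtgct
Sdhd: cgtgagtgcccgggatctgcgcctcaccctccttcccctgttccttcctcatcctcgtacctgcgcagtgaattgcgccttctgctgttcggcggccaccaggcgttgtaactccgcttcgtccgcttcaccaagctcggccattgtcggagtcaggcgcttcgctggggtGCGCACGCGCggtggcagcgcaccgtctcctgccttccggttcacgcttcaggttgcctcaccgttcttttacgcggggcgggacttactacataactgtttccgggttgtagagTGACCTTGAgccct
Uqcrc1: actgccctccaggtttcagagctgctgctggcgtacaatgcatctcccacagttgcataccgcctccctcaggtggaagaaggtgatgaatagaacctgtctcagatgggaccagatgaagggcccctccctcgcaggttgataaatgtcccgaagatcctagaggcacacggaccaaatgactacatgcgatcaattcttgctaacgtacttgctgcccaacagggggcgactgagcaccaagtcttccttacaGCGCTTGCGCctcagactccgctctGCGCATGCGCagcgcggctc
Cox6a1: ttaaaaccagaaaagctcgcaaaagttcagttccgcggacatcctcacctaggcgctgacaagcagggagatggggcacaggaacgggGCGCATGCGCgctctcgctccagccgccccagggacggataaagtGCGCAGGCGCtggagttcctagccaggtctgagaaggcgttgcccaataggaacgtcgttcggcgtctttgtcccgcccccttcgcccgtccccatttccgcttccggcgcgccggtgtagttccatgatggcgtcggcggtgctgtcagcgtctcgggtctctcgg
Atp5g3: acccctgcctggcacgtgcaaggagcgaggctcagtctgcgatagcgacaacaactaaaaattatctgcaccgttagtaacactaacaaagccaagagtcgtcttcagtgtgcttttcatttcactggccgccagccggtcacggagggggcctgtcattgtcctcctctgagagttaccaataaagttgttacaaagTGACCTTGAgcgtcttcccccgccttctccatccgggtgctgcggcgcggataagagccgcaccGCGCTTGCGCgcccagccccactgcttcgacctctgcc

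Few of these genes held a match to the miR-122 seed. In the longest 3′ UTR of each gene (GENCODE M21, GRCm38), the sites ACACTCC and CACTCCA were looked for, and 3 of the 85 genes held 1, beside 3322 of 20779 genes with a 3′ UTR, whose lengths were not matched to those of the subunit genes. The sites are shown with their neighbouring bases because they mark the 3 subunit transcripts that carry the complement of the seed, and the seed match is in capitals. They lie at chr11:96070447-96070474 (minus strand), chr17:56721474-56721498 (plus strand) and chr10:94220769-94220796 (plus strand).
Atp5g1: taatcaaggaACACTCCccagggaaagt
Ndufa11: ccactgatCACTCCAgcccctccca
Ndufa12: aatgtgtctgcCACTCCAgagcaatacg
Ndufa12, an accessory subunit at the base of the peripheral arm of complex I, was at 57.3, 67.0, 64.8 and 56.1 FPKM in antagomiR-122 livers, against 53.8, 53.9, 54.0 and 59.3 FPKM in antagomiR-control livers. Only the fourth control reached into the range of the antagomiR-122 livers. Its log2 fold change was 0.14 ± 0.081 (SE; limma, Benjamini-Hochberg adjusted p = 0.742). Ndufa11, a subunit of the membrane arm, was at 8.07, 11.8, 11.4 and 8.66 FPKM with antagomiR-122 and 9.33, 8.86, 9.33 and 10.4 FPKM with antagomiR-control. Atp5g1, which encodes the subunit of the proton-carrying ring of complex V, was at 175, 224, 206 and 209 FPKM with antagomiR-122 and 194, 196, 183 and 198 FPKM with antagomiR-control. In both genes the groups overlapped.

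In complex I, the NADH:ubiquinone oxidoreductase, 31 of 36 nuclear subunits were above 0 and 5 below, with a median log2 fold change of 0.063. The 7 conserved core subunits, which carry the flavin and the iron-sulfur clusters, had a median of 0.084, and the 29 accessory subunits one of 0.054. Ndufv1, which binds NADH and the flavin, was at 73.4, 80.5, 86.6 and 77.1 FPKM in antagomiR-122 livers, against 76.9, 75.9, 66.5 and 78.1 FPKM in antagomiR-control livers. Ndufv2, its partner with an iron-sulfur cluster, was at 77.6, 87.7, 88.3 and 76.0 FPKM with antagomiR-122 and 73.3, 76.6, 79.0 and 81.3 FPKM with antagomiR-control. Both pairs of groups overlapped. Ndufs1, the largest core subunit and holder of several iron-sulfur clusters, was the lowest of all 78 in log2 fold change, at -0.11 ± 0.065 (SE; limma adjusted p = 0.760; 95% interval -0.26 to 0.036). Its values were 55.9, 57.0, 55.8 and 57.2 FPKM in antagomiR-122 livers, against 63.2, 62.1, 62.3 and 56.6 FPKM in antagomiR-control livers. All 4 antagomiR-122 livers were below controls 1 to 3, and control 4 lay within their range.

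Ndufs7, a core subunit next to the ubiquinone site, averaged 71.8 ± 9.64 FPKM with antagomiR-122 and 65.3 ± 5.02 FPKM with antagomiR-control (SD, n = 4 each). Ndufs3, which lies in the same arm, averaged 102 ± 10.7 FPKM with antagomiR-122 and 95.7 ± 7.53 FPKM with antagomiR-control, and Ndufs8, which carries iron-sulfur clusters, averaged 45.9 ± 3.50 FPKM with antagomiR-122 and 43.4 ± 2.38 FPKM with antagomiR-control (SD, n = 4 each). In all of these the ranges of the groups overlapped. The highest accessory subunits were Ndufa3, at 230.2, 234, 279 and 208 FPKM with antagomiR-122 and 236, 225, 224 and 229 FPKM with antagomiR-control, and Ndufb9, at 211, 248, 262 and 214 FPKM with antagomiR-122 and 219, 230.4, 221 and 246 FPKM with antagomiR-control. The lowest by far was Ndufa11, whose overall mean of 9.73 FPKM lay below Ndufb4, the next, at 27.3 FPKM. Mean levels of complex I subunits spanned 23.97-fold, while the assembled complex is known to hold them in fixed proportion.

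Ndufb10, an accessory subunit of the membrane arm that faces the intermembrane space, was at 105, 116, 128 and 106 FPKM in antagomiR-122 livers, against 100.5, 95.7, 97.1 and 104 FPKM in antagomiR-control livers. The lowest antagomiR-122 liver lay just above the highest control, and the log2 fold change was 0.19 ± 0.081 (SE; 95% interval 0.0080 to 0.37; limma adjusted p = 0.659). Ndufb10 lies on chromosome 17, 24722060 to 24724478, on the minus strand (GRCm38), and its exons overlap no other annotated gene. Ndufa5, an accessory subunit of the arm that faces the matrix, was at 83.8, 86.8, 90.0 and 77.9 FPKM with antagomiR-122 and 74.8, 78.1, 79.3 and 80.3 FPKM with antagomiR-control. Its groups overlapped through antagomiR-122 replicate 4, with a log2 fold change of 0.11 ± 0.070 (SE; limma adjusted p = 0.767). Ndufb10 was the 1 complex I gene of 36 whose groups did not overlap. The other 22 accessory subunits had overall means between 34.6 FPKM (Ndufs4) and 199 FPKM (Ndufc1).

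Complex II, succinate dehydrogenase, has 4 subunits, and all 4 had a log2 fold change above 0 as deposited, with a median of 0.057, but Sdhd was below 0 under each of 5 other scalings or fits and Sdha under 2 of them. Sdha, the flavoprotein that oxidises succinate, was the highest, at 376, 374, 393 and 380.4 FPKM in antagomiR-122 livers, against 373, 382, 375 and 354 FPKM in antagomiR-control livers. The log2 fold change was 0.038 ± 0.065 (SE; limma adjusted p = 0.923). Sdhb, the iron-sulfur subunit, was at 115, 115, 142 and 127 FPKM with antagomiR-122 and 109, 127, 118 and 117 FPKM with antagomiR-control. Of the membrane anchors, Sdhc was at 219, 214, 266 and 234 FPKM with antagomiR-122 and 226, 216, 222 and 209 FPKM with antagomiR-control, and Sdhd was at 126, 147, 159 and 144 FPKM with antagomiR-122 and 141, 139, 142 and 150.3 FPKM with antagomiR-control. In all 4 genes antagomiR-122 replicate 3 was the highest of the 8 livers, and the groups overlapped. Log2 fold changes were 0.076 ± 0.089 for Sdhb, 0.092 ± 0.083 for Sdhc and 0.0048 ± 0.082 for Sdhd (SE; limma adjusted p = 0.873, 0.840 and 0.991). Without antagomiR-122 replicate 3 they were 0.012, 0.027 and -0.045. The summed FPKM of complex II in antagomiR-122 replicate 2 was -0.118% away from the control mean, where complexes I, III, IV and V were 9.09%, 9.02%, 6.05% and 10.2% above theirs, and this difference was not tested.

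Complex III, the cytochrome bc1 complex, had 7 of 8 nuclear subunits above 0 and a median of 0.060. Uqcrfs1, the Rieske iron-sulfur protein and the catalytic subunit among these 8, was at 145, 171, 163 and 147 FPKM in antagomiR-122 livers, against 148, 145, 146 and 149.9 FPKM in antagomiR-control livers. AntagomiR-122 replicates 2 and 3 were above all controls. Uqcrc1, a core protein related to mitochondrial processing peptidases, was at 144, 171, 167 and 155 FPKM with antagomiR-122 and 135, 153, 149 and 149.97 FPKM with antagomiR-control, and its companion Uqcrc2 averaged 179.8 ± 10.9 FPKM with antagomiR-122 and 175 ± 10.9 FPKM with antagomiR-control (SD, n = 4 each). The log2 fold change was 0.11 ± 0.079 for Uqcrc1 and 0.087 ± 0.074 for Uqcrfs1 (SE; limma adjusted p = 0.797 and 0.828). The most abundant was Uqcrq, a small subunit of the membrane part, at 426, 488, 569.6 and 442 FPKM with antagomiR-122 and 456, 483, 436 and 482 FPKM with antagomiR-control. Uqcr11, another small subunit, was next, at 263, 260.2, 338 and 239 FPKM with antagomiR-122 and 255, 263, 242 and 258 FPKM with antagomiR-control, with a log2 fold change of 0.10 ± 0.10 (SE; limma adjusted p = 0.859) that was -0.0037 without antagomiR-122 replicate 3. Uqcr10, which sits beside the Rieske protein, was at 182, 203, 208 and 169 FPKM with antagomiR-122 and 182, 184, 169.5 and 185 FPKM with antagomiR-control, with a log2 fold change of 0.075 ± 0.084 (SE; limma adjusted p = 0.869). Of the remaining subunits, Uqcrb averaged 245 ± 19.0 FPKM with antagomiR-122 and 241 ± 7.19 FPKM with antagomiR-control, and Uqcrh, the hinge protein at cytochrome c1, averaged 242 ± 22.9 FPKM with antagomiR-122 and 242 ± 12.7 FPKM with antagomiR-control (SD, n = 4 each). Groups overlapped in all 8 genes. Cyc1, the cytochrome c1 of the same complex, does not carry the family's name and averaged 149 ± 17.6 FPKM with antagomiR-122 and 143 ± 6.39 FPKM with antagomiR-control, with a log2 fold change of 0.046 ± 0.093 (SE; limma adjusted p = 0.937).

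In complex IV, cytochrome c oxidase, the catalytic subunits are mitochondrially encoded, and the nuclear ones surround them. Of the 13 that passed the filter, 10 were above 0 and 3 below, with a median of 0.067. Cox7b, a small membrane subunit, was the highest, at 778, 705, 1012 and 719 FPKM in antagomiR-122 livers, against 861, 777, 787 and 807 FPKM in antagomiR-control livers, with antagomiR-122 replicate 3 on top and replicate 2 at the bottom of all 8. Ndufa4, once counted with complex I and now placed in complex IV, followed at 606, 642, 707 and 572 FPKM with antagomiR-122 and 615, 585, 640.3 and 612 FPKM with antagomiR-control. Cox4i1, the widely used form of a regulatory subunit that binds ATP, was at 374, 445, 446 and 357 FPKM with antagomiR-122 and 381, 381, 379 and 383 FPKM with antagomiR-control. Its 4 controls lay within a narrow range, antagomiR-122 replicates 2 and 3 above it and replicates 1 and 4 below it. The log2 fold change of Cox4i1 was 0.083 ± 0.089 (SE; limma adjusted p = 0.863) and turned to -0.0035 after quantile normalization. Cox5b, which binds zinc, was at 206, 208, 249.6 and 203 FPKM with antagomiR-122 and 188, 209, 205 and 205 FPKM with antagomiR-control, and only antagomiR-122 replicate 3 stood clear above the rest. Cox7c, another small membrane subunit, was at 286, 348, 333 and 295 FPKM with antagomiR-122 and 300.01, 289, 297 and 306 FPKM with antagomiR-control. Cox7a2l, a factor of supercomplexes that C57BL/6 mice carry in a shortened form, was at 76.7, 79.4, 88.1 and 73.0 FPKM with antagomiR-122 and 79.2, 75.5, 74.4 and 73.0 FPKM with antagomiR-control. The log2 fold changes of Cox5b, Cox7c and Cox7a2l were 0.10 ± 0.085, 0.078 ± 0.081 and 0.067 ± 0.076 (SE; limma adjusted p = 0.831, 0.857 and 0.869). Without antagomiR-122 replicate 3 those of Cox4i1, Cox5b and Cox7a2l were 0.034, 0.029 and 0.016, and without antagomiR-122 replicate 2 that of Cox7c was 0.029. Cox6c averaged 365 ± 35.9 FPKM with antagomiR-122 and 346 ± 5.03 FPKM with antagomiR-control, and Cox5a, which faces the matrix, averaged 182 ± 22.4 FPKM with antagomiR-122 and 176 ± 6.66 FPKM with antagomiR-control (SD, n = 4 each). In all 13 genes the groups overlapped.

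Complex IV has isoforms that other tissues use, and in these livers the liver forms exceeded Cox7a1, Cox6b2 and Ndufa4l2, the isoforms with no listed 0, by at least 51.9-fold in mean FPKM. Cox7a1, the form of heart, muscle and brown fat, was the exception that passed the filter, at 2.66, 2.58, 3.15 and 2.62 FPKM in antagomiR-122 livers, against 3.09, 2.55, 3.88 and 1.91 FPKM in antagomiR-control livers, while its partner Cox7a2 averaged 146 ± 21.1 FPKM with antagomiR-122 and 145 ± 8.48 FPKM with antagomiR-control (SD, n = 4 each). The controls of Cox7a1 spread more widely than the antagomiR-122 livers and enclosed them. Cox6a2 of heart and muscle was listed at 0 in 4 libraries, with 0, 0.241, 0.0750 and 0 FPKM with antagomiR-122 and 0.0843, 0.138, 0 and 0 FPKM with antagomiR-control, against an overall mean of 405 FPKM for its liver partner Cox6a1. Cox8b, also of heart and muscle, was listed at 0 in all libraries but antagomiR-control replicate 3, at 0.223 FPKM, and Cox8a averaged 313 FPKM. Neither muscle form was listed above 0.241 FPKM in a library of either group, and since these values carry no counts, a listed 0 does not show that a gene is silent. Cox4i2, the lung form, was at 0.135, 0.184, 0.110 and 0.0748 FPKM with antagomiR-122 and 0.127, 0.102, 0 and 0.178 FPKM with antagomiR-control. Cox6b2, the testis form, was at 1.61, 0.614, 1.13 and 0.202 FPKM with antagomiR-122 and 0.285, 0.698, 0.391 and 0.766 FPKM with antagomiR-control, against an overall mean of 319.8 FPKM for Cox6b1. The 2 highest values of Cox6b2 were in antagomiR-122 livers and so was the lowest. Ndufa4l2, a relative of Ndufa4 induced by hypoxia, was at 1.00, 0.388, 1.14 and 1.08 FPKM with antagomiR-122 and 1.17, 0.734, 0.786 and 0.783 FPKM with antagomiR-control. Cox7b2 and Cox8c, testis forms, were listed at 0 in all 8 libraries. In these 7 genes under the filter no test was made, and the groups overlapped in the 5 with any value above 0. Markers of muscle (Acta1, Ckm, Myh4, Tnnt3 and Mylpf) summed to 1.48 to 10.3 FPKM with antagomiR-122 and 0.505 to 3.70 FPKM with antagomiR-control, nearly all of it Mylpf, and 5 brown fat markers, Ucp1 among them, to 0.0425 to 0.625 FPKM with antagomiR-122 and at most 0.0812 FPKM with antagomiR-control. Their part in the levels of these isoforms was not tested.

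**Figure D4:**
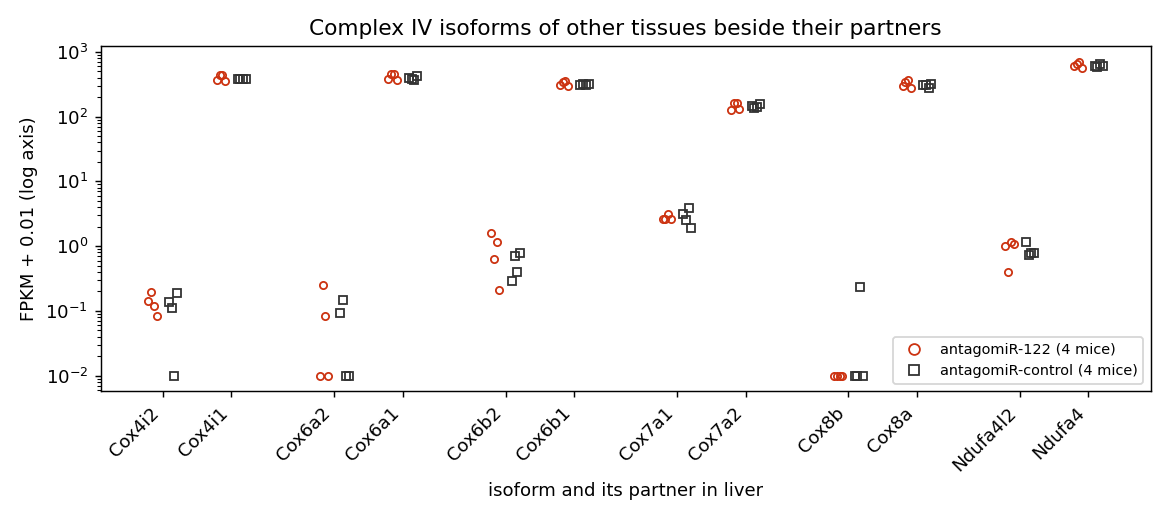
FPKM of complex IV isoforms known from other tissues beside the partner used in liver, with 0.01 added on a log axis so that values listed at 0 can be drawn, and 1 point per mouse. Cox7a1 is the highest of these isoforms, at 1.91 to 3.88 FPKM over the 8 mice, and Cox8b is listed at 0 in 7 libraries.

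In complex V, the ATP synthase, 16 of 17 genes, Atp5sl and Atp5s included, were above 0, with a median log2 fold change of 0.066. In the catalytic head, Atp5b, the β subunit, was the most abundant gene of all 85, at 792, 979.7, 961 and 796 FPKM in antagomiR-122 livers, against 813, 854, 826 and 868 FPKM in antagomiR-control livers. Atp5a1, the α subunit that alternates with it, was at 477, 540.1, 556 and 485 FPKM with antagomiR-122 and 484, 499, 499 and 509.7 FPKM with antagomiR-control. AntagomiR-122 replicates 2 and 3 were above every control in both genes, and replicates 1 and 4 were within or below the range of the controls. Over all 8 livers the mean FPKM of Atp5b was 1.701 times that of Atp5a1, which has the same number of copies in the head, and 4.67, 5.45 and 3.00 times that of Atp5c1, Atp5d and Atp5e, the γ, δ and ε subunits of the central stalk. Atp5c1 averaged 186 ± 7.88 FPKM with antagomiR-122 and 182 ± 6.78 FPKM with antagomiR-control, Atp5d averaged 162 ± 15.6 FPKM with antagomiR-122 and 154 ± 4.47 FPKM with antagomiR-control and Atp5e averaged 298 ± 39.0 FPKM with antagomiR-122 and 277 ± 13.4 FPKM with antagomiR-control (SD, n = 4 each), with overlapping groups. In the membrane part, Atp5k, Atp5l and Atp5j2, the e, g and f subunits, averaged 321, 172 and 163 FPKM with antagomiR-122 and 309.7, 165 and 163 FPKM with antagomiR-control.

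The proton-carrying ring is built from 1 mature peptide that 3 genes encode. Atp5g3 was the main source, at 511, 598, 606 and 499.9 FPKM in antagomiR-122 livers, against 480.1, 512, 487 and 520.01 FPKM in antagomiR-control livers, with a log2 fold change of 0.14 ± 0.087 (SE; limma adjusted p = 0.762). Only antagomiR-122 replicates 2 and 3 exceeded all controls. Of the summed FPKM of the 3 genes, Atp5g3 gave 65.0 ± 1.62% with antagomiR-122 and 63.9 ± 0.622% with antagomiR-control (SD, n = 4 each). Atp5g1 gave 23.9 ± 1.71% with antagomiR-122 and 24.6 ± 0.611% with antagomiR-control, and Atp5g2 11.1 ± 0.177% with antagomiR-122 and 11.4 ± 0.242% with antagomiR-control (SD, n = 4 each). For Atp5g1 and Atp5g3 the difference between the mean shares was smaller than the spread of the antagomiR-122 livers. For Atp5g2 it exceeded the SD of either group, though the ranges overlapped, and no test was made. In the peripheral stalk, Atp5h, the d subunit, was at 255, 284, 306 and 271 FPKM with antagomiR-122 and 245, 259, 271 and 253 FPKM with antagomiR-control, with a log2 fold change of 0.12 ± 0.078 (SE; limma adjusted p = 0.797). Atp5j, coupling factor 6, averaged 360.1 ± 38.4 FPKM with antagomiR-122 and 343 ± 5.54 FPKM with antagomiR-control, Atp5f1, the b subunit, averaged 198 ± 14.0 FPKM with antagomiR-122 and 190.1 ± 5.26 FPKM with antagomiR-control, and Atp5o, which joins the stalk to the head, averaged 155 ± 9.39 FPKM with antagomiR-122 and 148 ± 5.92 FPKM with antagomiR-control (SD, n = 4 each).

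The 2 genes with the highest log2 fold changes carry the family's name without being structural subunits of the enzyme. Atp5sl, whose human counterpart acts in the assembly of the membrane arm of complex I, was at 13.3, 13.3, 11.9 and 13.7 FPKM in antagomiR-122 livers, against 10.4, 11.9, 10.7 and 11.1 FPKM in antagomiR-control livers. AntagomiR-122 replicate 3, the highest library for most subunits, was the lowest of its group here, just above the highest control. The log2 fold change was 0.22 ± 0.079 (SE; 95% interval 0.047 to 0.40; limma adjusted p = 0.570). The gene lies on chromosome 7, 25619414 to 25625551, on the plus strand (GRCm38). Atp5s, known as coupling factor B, was at 4.07, 3.13, 3.75 and 2.89 FPKM with antagomiR-122 and 3.09, 3.04, 2.49 and 2.78 FPKM with antagomiR-control, with a log2 fold change of 0.21 ± 0.11 (SE; limma adjusted p = 0.726) and overlapping groups.

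Genes around the chain showed no adjusted call either (limma), with 0 in each of 9 lists. At an unadjusted p under 0.05 there were 4 of 49 assembly factors (8.16%), 1 of 13 mitochondrially encoded subunits, 1 of 16 regulators and 0 in the lists of other components and the citrate cycle, against 7.44% of all genes tested. Of the assembly factors, 11 of 14 tested genes were above 0 for complex I, 2 of 2 for complex II, 3 of 6 for complex III, 16 of 23 for complex IV and 2 of 4 for complex V, with medians of 0.066, 0.13, 0.025, 0.064 and -0.0035. Ndufaf4, which helps build the peripheral arm of complex I, was at 21.8, 20.9, 23.2 and 21.2 FPKM in antagomiR-122 livers, against 17.7, 18.4, 19.3 and 19.9 FPKM in antagomiR-control livers, and Cox17, the copper chaperone of complex IV, was at 63.5, 64.5, 56.7 and 56.8 FPKM with antagomiR-122 and 53.9, 44.0, 51.1 and 52.7 FPKM with antagomiR-control. In both genes, and in Uqcc3 of complex III and Atpaf1 of complex V, the antagomiR-122 livers lay above all controls. These were 4 of the 49 assembly factors (8.16%), against 2.38% of all genes, and with 1 in the other direction 5 of 49 (10.2%) did not overlap, against 4.52% of all genes. The log2 fold changes of Ndufaf4, Cox17, Uqcc3 and Atpaf1 were 0.20 ± 0.073, 0.26 ± 0.087, 0.22 ± 0.10 and 0.20 ± 0.080 (SE; limma adjusted p = 0.595, 0.551, 0.671 and 0.621). Lyrm7, the chaperone of the Rieske protein Uqcrfs1, was the 1 assembly factor whose antagomiR-122 livers all lay below the controls, at 1.71, 2.41, 1.85 and 2.51 FPKM in antagomiR-122 livers, against 5.86, 3.44, 3.13 and 4.68 FPKM in antagomiR-control livers. Its log2 fold change was -0.74 ± 0.17 (SE; limma adjusted p = 0.308), while that of Uqcrfs1 was 0.087 ± 0.074 (SE). The next smallest p values for complexes I, IV and V belonged to Nubpl, Higd1a and Tmem70, with log2 fold changes of 0.21, 0.12 and -0.044, and the 2 tested for complex II, Sdhaf1 and Sdhaf2, were at 0.18 and 0.073.

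Of 13 further genes of the chain, among them electron carriers and enzymes of ubiquinone synthesis, 10 were above 0, with a median of 0.079. Cycs, cytochrome c, averaged 47.5 ± 6.36 FPKM with antagomiR-122 and 49.0 ± 5.99 FPKM with antagomiR-control, Coq3 of ubiquinone synthesis averaged 10.2 ± 0.961 FPKM with antagomiR-122 and 8.78 ± 1.03 FPKM with antagomiR-control, and Etfb, which passes electrons from fatty acid oxidation, averaged 260.4 ± 36.9 FPKM with antagomiR-122 and 228 ± 16.5 FPKM with antagomiR-control (SD, n = 4 each). Of the 13 subunits encoded in mitochondrial DNA, 8 were above 0 and 5 below, with a median of 0.048, and mt-Co1, mt-Co3, mt-Atp6 and mt-Atp8 had a listed value of 0 in antagomiR-122 replicate 4 and in no other library. These 4 were among the 5 below 0, and without that library, a step added after the values were seen, 12 of the 13 were above 0, with a median of 0.079, and mt-Nd3 was below. Without that library, mt-Co2 and mt-Co3 averaged only 1.68 and 1.94 FPKM with antagomiR-122 and 1.68 and 1.83 FPKM with antagomiR-control. By comparison, mt-Co1 averaged 14069 FPKM with antagomiR-122 and 13349 FPKM with antagomiR-control. The reason for so uneven a listing was not tested, and it limits the counts over the 13. The smallest p values were those of mt-Nd6, at 7589.9 ± 443 FPKM with antagomiR-122 and 6481 ± 507 FPKM with antagomiR-control, and mt-Nd5, at 4499 ± 466 FPKM with antagomiR-122 and 3999 ± 391 FPKM with antagomiR-control (SD, n = 4 each), both subunits of complex I with overlapping groups. The citrate cycle, which feeds complexes I and II, had 17 of 18 enzymes above 0, with a median of 0.076, led by Fh1, fumarase, at 177 ± 21.0 FPKM with antagomiR-122 and 151 ± 17.1 FPKM with antagomiR-control, and Idh3g, a subunit of isocitrate dehydrogenase, at 43.5 ± 3.06 FPKM with antagomiR-122 and 38.4 ± 3.42 FPKM with antagomiR-control (SD, n = 4 each). Of regulators, 11 of 16 were above 0, with a median of 0.056. Esrra, the estrogen-related receptor α, was at 11.4, 8.60, 11.6 and 9.20 FPKM in antagomiR-122 livers, against 8.71, 7.02, 6.93 and 6.43 FPKM in antagomiR-control livers, with overlapping groups and a log2 fold change of 0.44 ± 0.12 (SE; limma adjusted p = 0.452). Ppargc1a, the coactivator PGC-1α, was at 1.36, 0.821, 0.635 and 1.52 FPKM with antagomiR-122 and 1.07, 1.10, 1.68 and 1.24 FPKM with antagomiR-control, Nrf1 averaged 4.28 ± 0.248 FPKM with antagomiR-122 and 4.20 ± 0.294 FPKM with antagomiR-control, and Peo1, the helicase of mitochondrial DNA, averaged 7.07 ± 0.386 FPKM with antagomiR-122 and 6.00 ± 0.753 FPKM with antagomiR-control (SD, n = 4 each).

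Some counts of these genes carry a limit of assignment. GENCODE M21 names 12 pseudogenes after members of the family, and reads shared with such copies may be split between them. The exons of 30 of the 85 genes overlap those of another annotated gene, by over 10% of their bases in 11, most of all Ndufb6 with Smim27 (39.0%) and Ndufa13 with Tssk6 (30.0%) on the other strand. The strand setting of the libraries is not given in the sources used here, so reads from such pairs cannot be told apart.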

How the data were processed

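RNA-seq libraries of 8 livers, 4 per group, were analysed, with groups and replicate numbers from the sample titles. Per the submitters' processing notes, the reads went through bcl2fastq (2.15.0.4) and cutadapt (version 1.7.1), then alignment to GRCm38 by TopHat2 (version 2.0.13), with FPKM from Cufflinks (version 2.2.1) and Cuffdiff. Which annotation, strand setting and library scaling were used is not given in the sources used here. Deposited by the authors were FPKM for every library and, for every gene, a log2 fold change, a Cuffdiff test statistic (a score), a p-value and a q-value. Of 43630 entries, 43629 had values, and every column of a single library was matched to a mouse. A count test was not run on FPKM, and depth was estimated only in relative terms.

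The 11131 genes averaging 1 FPKM or more were fitted in R 4.3.3 with limma 3.58.1, using an intensity trend, robust variances and two-sided tests. The scale was log2(FPKM + 1), which understates changes of low genes, and p-values were adjusted by Benjamini-Hochberg at 0.05. The fit was tested on simulated data. The lists and subunits were chosen with earlier results of these data known, so counts over them carry no test. A gene of the family is not reported here. Named in full were core subunits, the 4 smallest p and 2 highest means per complex, the isoforms of other tissues with their partners, and genes at 0 or under the filter, and of each other list the 2 smallest p. Ndufa11, Ndufb4, the carriers of miR-122 sites and the pairs with overlapping exons were named after their values were seen. Lengths came from GENCODE M21 and promoters from RefSeq. Same-numbered livers did not deviate together (r = 0.13, -0.24, -0.061 and -0.18), so the numbers were not used as pairs. Alternatives were another pseudocount, filters, scalings, variance models, the replicate block and each library left out, and, added after the values were seen, quantile normalization and removal of the trend on transcript length.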

Additional observations from a re-analysis of the deposited data

Results flagged for a closer look

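In 7 of 156 groups of 4 livers, 1 liver lay far from the other 3, with a gap of over 0.829 of the group's range, and chance gives about 1 in 20 such groups. With antagomiR-122 these were all replicate 3 on the high side: Ndufs5 at 111 FPKM, with the others at 84.4 to 88.5 FPKM, Cox5b at 249.6 FPKM, with the others at 203 to 208 FPKM, and Cox7a1 at 3.15 FPKM, with the others at 2.58 to 2.66 FPKM. With antagomiR-control, replicate 4 was high for Ndufa12 at 59.3 FPKM, with the others at 53.8 to 54.0 FPKM, and low for Ndufs1 at 56.6 FPKM, with the others at 62.1 to 63.2 FPKM. Replicate 3 of the controls was low for Ndufb2 at 89.9 FPKM, with the others at 107 to 110.4 FPKM, and replicate 1 was low for Atp5f1 at 182 FPKM, with the others at 192 to 193 FPKM.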

How the results depend on the processing

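No setting gave a subunit past the adjusted threshold (limma), and the median log2 fold change was above 0 in every complex under every setting, between 0.015 and 0.10 over livers left out for all subunits. It was 0.027 with TPM, 0.030 with array weights and 0.029 after quantile normalization, with 54 of 78 above 0 in each, beside 42.6%, 52.4% and 52.2% of all genes. By complex it ran over livers left out between 0.013 and 0.10 in complex I, 0.017 and 0.091 in II, 0.013 and 0.099 in III, 0.0066 and 0.10 in IV, and 0.030 and 0.11 in V. Subunits at an unadjusted p under 0.05 numbered 1 with TPM, without trend and robust fitting, with array weights and with the replicate block, beside 6.80%, 7.53%, 8.18% and 5.93% of all genes, and 0 to 3 over livers left out, 0 without antagomiR-control replicate 1 (5.42% of all genes) and 3 without antagomiR-122 replicate 4 (8.19%). The replicate block changed no other call. Subunits whose groups did not overlap numbered 1 under median-ratio scaling (4.46% of all genes) and 2 to 5 over livers left out, with 5 without antagomiR-122 replicate 1 or antagomiR-control replicate 4 (8.18% and 9.28% of all genes) and 4 without antagomiR-122 replicate 4 (8.26%). The log2 fold change of Sdhd was -0.0053 under median-ratio scaling, -0.035 with TPM, -0.040 with array weights, -0.023 after quantile normalization and -0.041 with the length trend removed, and -0.045 to 0.067 over livers left out. Sdha was at -0.0017 with TPM and -0.017 after quantile normalization, Cox4i1 at -0.0035 after quantile normalization, and Uqcr11 at -0.0037 to 0.16 over livers left out. Leaving out 1 liver moved the log2 fold change by over 1.5 times in 13 of 20 subunits, and in 11 of the 20 it lay nearest 0 without antagomiR-122 replicate 3. The cause was not tested. Values are FPKM without counts, so no counting error can be given, and 4 livers a group limit the precision.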
